A study of Mus musculus with 9 samples.

Results

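The genes described here encode the subunits of the vacuolar H+-ATPase (V-ATPase), its accessory proteins, and channels and transporters of the lysosomal membrane. They are 38 genes listed by name for their known roles, of 20287 genes with a read in any library. All 38 had a read somewhere, and 34 had a mean of at least 0.5 FPKM (fragments per kilobase of gene, scaled to library size) over the libraries and were tested among 13990 such genes. By role, the tested genes were 9 of 10 membrane-sector (V0) subunits, 9 of 11 catalytic-sector (V1) subunits, both accessory proteins, 7 of 8 channels and exchangers, and all 7 solute and lipid transporters. The 4 below the limit were Atp6v0d2 (0.0167 FPKM), Atp6v1b1 (0.0111 FPKM), Mcoln2 (0.0689 FPKM) and Atp6v1g2, the nearest to it at 0.317 FPKM, while the lowest gene kept was Atp6v1c2 at 0.504 FPKM.

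RNA-seq was made from E14 mouse embryonic stem cells of strain 129, either knockout for Hbxip (Hbxip-/-, KO) or wild type (WT). Each genotype was grown in 3 ways: in pluripotent culture, for 96 h (day 4) without LIF, the cytokine that maintains self-renewal, and as embryoid bodies, aggregates in which the cells differentiate. Each culture gave 2 KO libraries and 1 WT library, so 6 KO and 3 WT libraries in all. The labels do not say whether the KO libraries came from separate clones or cultures, so each p-value speaks of the scatter among the libraries at hand, which may be technical, and each lone WT library is assumed to vary like the KO pairs.

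The V-ATPase is a rotary proton pump. Its V1 sector hydrolyses ATP on the cytosolic side, and its V0 sector carries protons through the membrane into lysosomes, endosomes and secretory vesicles. Channels and transporters, some of them driven by the proton gradient, move chloride, calcium, amino acids, cystine, metals and sterols across the lysosomal membrane. Hbxip, also named Lamtor5, encodes a subunit of Ragulator, a scaffold on the lysosomal surface that binds the V-ATPase and takes part in amino acid signalling to the kinase mTORC1.

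Many lysosomal genes carry in their promoters the CLEAR element, bound by TFEB and related transcription factors, whose core is the sequence TCACGTG. Promoter sequences (RefSeq, build GRCm38.p6, 250 bases before to 50 after the start) were at hand for 30 of the 38 genes. The windows shown here come only from genes that hold TCACGTG. All these genes were higher in KO cells in some or all cultures, with different patterns that are described further on. Atp6v0b holds 2 copies, of which the first is shown. Atp6v0d1 and Slc38a7 were higher in KO cells in every culture, Atp6v0b and Atp6v0e in pluripotent culture, and Atp6v1a in the differentiating cultures. Each window has 30 bases and is written 5′ to 3′ on the gene's strand, with TCACGTG or its extension TCACGTGA in capitals.
Atp6v0d1, chr8:105566050-105566079, minus strand: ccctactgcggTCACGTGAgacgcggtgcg
Slc38a7, chr8:95853508-95853537, minus strand: gtgattcaggcTCACGTGttacttgagtcg
Atp6v0b, chr4:117887348-117887377, minus strand: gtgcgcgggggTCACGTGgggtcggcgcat
Atp6v0e, chr17:26676387-26676416, plus strand: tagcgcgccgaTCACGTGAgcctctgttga
Atp6v1a, chr16:44139373-44139402, minus strand: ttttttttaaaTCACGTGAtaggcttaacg

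Mcoln1, the gene of the lysosomal calcium channel TRPML1, was also higher in KO cells in every culture and holds 2 copies, so its whole upstream stretch of 250 bases is shown, with both copies in capitals.
Mcoln1, chr8:3500269-3500518, plus strand: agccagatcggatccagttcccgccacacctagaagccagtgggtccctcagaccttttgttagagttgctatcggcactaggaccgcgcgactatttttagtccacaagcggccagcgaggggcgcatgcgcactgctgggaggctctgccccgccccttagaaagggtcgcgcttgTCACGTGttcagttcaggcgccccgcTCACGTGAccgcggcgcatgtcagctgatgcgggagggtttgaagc

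Library totals ran from 10147301 to 10863866 counts, so that 3 counts correspond to 0.276 to 0.296 CPM in a library. Hbxip reads remained in every KO library. Hbxip FPKM was 31.0 and 29.1 in KO against 40.7 in WT pluripotent cells, 16.2 and 15.5 in KO against 38.5 in WT cells without LIF, and 23.0 and 18.3 in KO against 41.8 in WT embryoid bodies. Its decrease passed the test without LIF (log2 fold change -1.22, adjusted p = 7.55e-05) and in embryoid bodies (-1.02, adjusted p = 0.000254), but not in pluripotent culture (-0.31, adjusted p = 0.0971). The 2 KO pluripotent libraries stood apart from the rest: on a principal component with 50.2% of the variance they lay at 96.7 and 81.1, and the other libraries between -70.7 and 14.3. Of 7 markers of pluripotent cells, 4 were called lower and 2 higher in KO cells without LIF than in KO pluripotent cells. In KO embryoid bodies 2 were lower and 3 higher. Of all genes, 29.0% were called lower and 30.2% higher in the first comparison, and 30.0% and 31.0% in the second. In WT cells 4 markers were lower and 0 higher without LIF (8.90% and 11.6% of all genes). In WT embryoid bodies 4 were lower and 1 higher (18.9% and 19.7%). Pou5f1 (Oct4) was at 648 to 895 FPKM throughout, while Esrrb was at 230 and 215 FPKM in KO against 186 in WT pluripotent cells, 182 and 172 in KO against 69.5 in WT cells without LIF, and 217 and 207 in KO against 64.5 in WT embryoid bodies. Nanog went the other way and was called lower in KO than in WT in all 3 cultures (log2 fold changes -0.60, -0.33 and -0.38). Sox2 (-0.54) and Zfp42 (-0.31) were called lower in KO pluripotent cells and higher in KO in the other cultures.

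Genes were tested with edgeR's quasi-likelihood test and called at a Benjamini-Hochberg adjusted p below 0.05 over all 13990 genes. Fold changes are log2 values of KO over WT unless another pair is named, ± the standard error. Over the 3 cultures together, 18 of the 34 genes were called higher in KO cells and 4 lower, with a median of 0.41. Of all genes tested, 27.1% were called, 13.3% higher and 13.8% lower, with a median of -0.02. The 4 called lower were Atp6v0a4, Mcoln3, Atp6v0e2 and Npc1. Single libraries decided this lower group: its count was 0 without the WT library of LIF withdrawal, and the calls of Npc1 and Atp6v0e2 were lost with 7 and 5 of the 9 libraries left out in turn. The higher group moved too, from 13 to 19 genes. Atp6v0a1 kept its call only with the WT pluripotent library left out. Atp6v1g1, Clcn7, Ctns and Slc36a1 each lost theirs with several libraries left out in turn, and Tpcn1 without the WT library of LIF withdrawal. Without the pluripotent culture, whose KO libraries stood apart, 17 were called higher and 5 lower, where 20.1% of all genes were called higher and 19.0% lower. In that fit Clcn7, Ctns and Atp6v0e2 lost their calls, Atp6v1a (0.66) and Atp6v1c2 (-2.87) gained one, and Tcirg1 turned to a called -0.40 (adjusted p = 0.0284).

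In pluripotent culture 20 of the 34 genes were called higher in KO cells and 3 lower, with a median of 0.72, where 51.8% of all genes were called, 25.5% higher and 26.3% lower. After LIF withdrawal 15 were called higher and 5 lower, with a median of 0.21, where 35.8% of all genes were called, 18.4% higher and 17.4% lower. In embryoid bodies 17 were called higher and 2 lower, with a median of 0.26, where 37.2% of all genes were called, 19.4% higher and 17.7% lower. The median of all genes was between -0.01 and 0 in each culture. DESeq2 called 10 of the 34 higher and 1 lower without LIF, where it called 11.3% of all genes higher and 9.01% lower, and 12 higher in embryoid bodies, where it called 11.9% of all genes higher and 9.19% lower. Besides losses named below, DESeq2 lost the calls of Tpcn1, Tcirg1, Atp6v1c2 and Mcoln3 without LIF. In embryoid bodies it lost those of Atp6v0a1, Clcn7, Ctns, Slc36a1 and Mcoln3, and in pluripotent culture that of Atp6v0e2.

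The cultures were compared with separate libraries, but their tests share a common estimate of the spread. The labels do not say whether the same KO and WT cells were grown in all 3 cultures. Calls in several cultures therefore cannot be taken as independent. Of the 34 genes, 11 (32.4%) were called higher in KO cells in all 3 cultures, against 6.92% of all genes tested. They were Atp6v0d1, Atp6v0a2, Atp6v1b2, Atp6v1c1, Atp6v1d, Atp6v1e1, Atp6v1h, Atp6ap1, Atp6ap2, Mcoln1 and Slc38a7. Under DESeq2, Atp6ap1, Atp6v0a2, Mcoln1 and Slc38a7 lost their calls without LIF, and Atp6v0a2 also its call in embryoid bodies. The calls of Atp6v0a2, Mcoln1 and Slc38a7 without LIF were also lost with limma on FPKM, quantile-normalized or not. The genes called higher in pluripotent culture only numbered 5 (14.7%, near the 14.3% of all genes), namely Atp6v0b, Atp6v0c, Atp6v0e, Atp6v1f and, with a call in the other direction without LIF, Tcirg1. In all, 23 genes (67.6%, against 30.5% of all genes) were called higher in at least 1 culture and lower in none, 6 (17.6%, against 31.1%) were called lower in at least 1 and higher in none, and 4 (11.8%, against 29.4%) were never called.

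**Figure D1:**
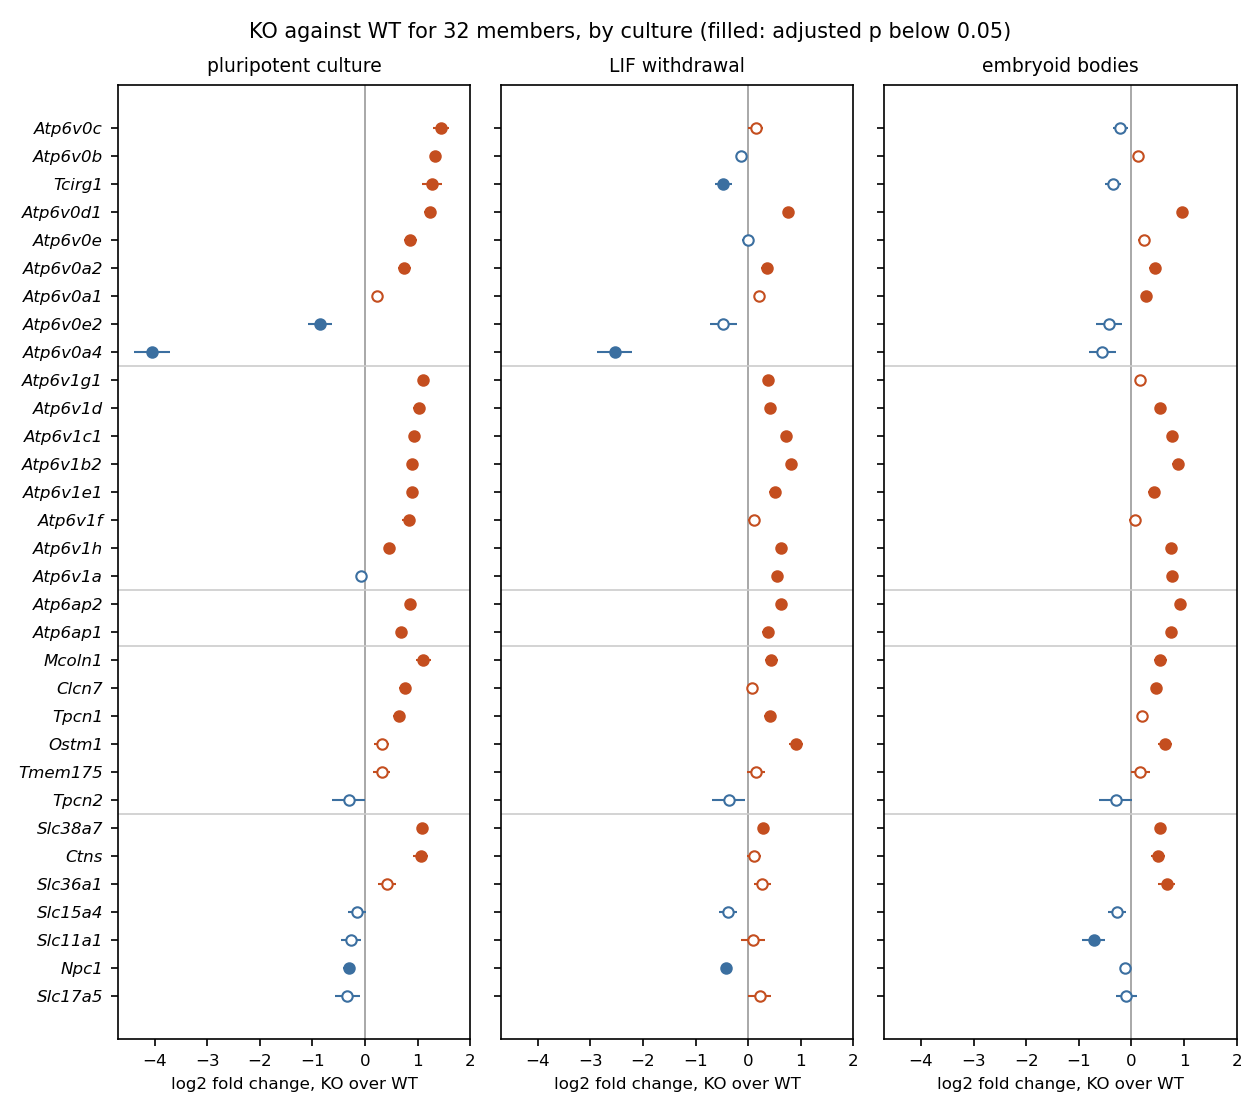
Log2 fold change of KO over WT (x axis) for 32 tested genes grouped by role, from the top V0 subunits, V1 subunits, accessory proteins, channels and exchangers, and transporters, with 1 panel per culture. Bars are standard errors and filled points passed the test. Atp6v0c and Atp6v0b lie at 1.45 and 1.33 in pluripotent culture and between -0.21 and 0.14 in the other cultures, while Atp6v0d1 and Atp6v1b2 lie at 0.75 or above in all 3. Atp6v1c2 and Mcoln3, with few counts, are not drawn.

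Summed over the 21 V0 and V1 genes, expression was 1367 and 1320 FPKM in KO against 759 in WT pluripotent cells, 1046 and 982 in KO against 790 in WT cells without LIF, and 1340 and 1271 in KO against 960 in WT embryoid bodies. Both KO libraries were thus above the WT library in each culture. The 15 channels and transporters summed to far less, 125 and 125 FPKM in KO against 90.3 in WT pluripotent cells, 112 and 118 in KO against 106 in WT cells without LIF, and 152 and 152 in KO against 123 in WT embryoid bodies. In bulk RNA, a change in the share of a cell type and a change of RNA per cell cannot be told apart.

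Markers of other cells moved too. The 14 markers of primitive and visceral endoderm, an early lineage with active endocytosis, summed to 1234 and 1089 FPKM in KO against 109 in WT pluripotent cells, 365 and 326 in KO against 157 in WT cells without LIF, and 519 and 450 in KO against 315 in WT embryoid bodies. Nearly all of the sum was Apoe, at 1202 and 1063 FPKM in KO against 98.8 in WT pluripotent cells. Of the 9 tested, Apoe (12.5-fold), Amn (12.1-fold), Hnf4a (3.45-fold) and Gata6 (2.24-fold) were called higher in KO pluripotent cells, and Dab2, Pdgfra and Sox7 lower. Without LIF 3 were called higher and 2 lower, and in embryoid bodies 2 higher and 3 lower. Hnf4a, the gene of an endoderm transcription factor, was called in all 3 cultures, at 4.72 and 4.74 FPKM in KO against 1.49 in WT pluripotent cells, 5.66 and 5.69 in KO against 0.58 in WT cells without LIF (10.3-fold), and 4.87 and 4.76 in KO against 0.26 in WT embryoid bodies (18.2-fold). Ttr and Afp, products of mature visceral endoderm, stayed at or below 0.09 FPKM in every library.

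The 8 macrophage and osteoclast markers, of cells rich in lysosomes, summed to 54.2 and 53.3 FPKM in KO against 27.5 in WT pluripotent cells, 36.8 and 34.1 in KO against 20.8 in WT cells without LIF, and 25.2 and 22.6 in KO against 12 in WT embryoid bodies. Of the 3 tested, Spi1, a regulator of myeloid cells, was at 11.7 and 10.8 FPKM in KO against 0.90 in WT pluripotent cells (13.5-fold, adjusted p = 8.47e-06), and was called higher in embryoid bodies (5.06-fold) but not without LIF (2.10-fold, adjusted p = 0.195). Cd68, itself a lysosomal protein gene, was at 34.2 and 28.6 FPKM in KO against 14.6 in WT pluripotent cells and was called higher in all 3 cultures, and Acp5 was called in none. Csf1r, Ptprc and Adgre1, which define macrophages and blood cells, stayed at or below 0.07 FPKM throughout.

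The 8 fibroblast and feeder markers summed to 425 and 401 FPKM in KO against 193 in WT pluripotent cells, 157 and 147 in KO against 79.1 in WT cells without LIF, and 117 and 104 in KO against 63.7 in WT embryoid bodies. Vim, the largest part of each sum, was called higher in KO in all 3 cultures (1.45 in pluripotent culture). The other tested markers were lower in KO, Col1a1 in all 3 cultures (-3.26 in pluripotent culture) and Thy1 in pluripotent culture (-0.76) and without LIF (-0.95), and Postn, Dcn and Lum were at or below 0.19 FPKM. The 6 neural progenitor markers summed to 56.1 and 54.4 FPKM in KO against 127 in WT pluripotent cells, 58.5 and 54.4 in KO against 66.2 in WT cells without LIF, and 47.9 and 41.1 in KO against 41.4 in WT embryoid bodies. Of the 5 tested, Sox1 was called higher in KO in all 3 cultures (2.13-, 24.9- and 14.5-fold), Nes and Sox11 were called lower in all 3, Tubb3 was called lower in pluripotent culture and higher in embryoid bodies, and Pax6 was called lower without LIF. The part of these markers' cells in the results was not tested.

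Of the V0 genes, Atp6v0d1 had the highest level and rose in KO cells in every culture. It encodes the d subunit, which couples the central stalk to the proteolipid ring. Atp6v0d1 was at 219 and 222 FPKM in KO against 102 in WT pluripotent cells, 190.3 and 173 in KO against 113 in WT cells without LIF, and 241 and 233 in KO against 120.3 in WT embryoid bodies. Every KO library was above every WT library, by 0.98 ± 0.10 over the 3 cultures (1.97-fold, adjusted p = 3.54e-04). Its fold change was 1.23 ± 0.10 in pluripotent culture (adjusted p = 9.76e-07), 0.75 ± 0.09 without LIF (adjusted p = 5.86e-05) and 0.97 ± 0.09 in embryoid bodies (adjusted p = 8.70e-06). The other isoform gene, Atp6v0d2, known from osteoclasts and kidney, was at or below 0.07 FPKM in every library.

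The genes of the proton-carrying ring and its small partners behaved otherwise. Atp6v0c encodes the proteolipid c that makes up most of the ring, Atp6v0b the related proteolipid c″, and Atp6v0e a small subunit beside it. Atp6v0c was at 129.9 and 117 FPKM in KO against 49.2 in WT pluripotent cells, 62.9 and 51.8 in KO against 54.3 in WT cells without LIF, and 83.7 and 71.3 in KO against 89.0 in WT embryoid bodies. Only in pluripotent culture did both KO libraries lie above the WT library, with a fold change of 1.45 ± 0.15 (2.74-fold, adjusted p = 6.79e-06). Without LIF it was 0.14 ± 0.14 (adjusted p = 0.494) and in embryoid bodies -0.21 ± 0.14 (adjusted p = 0.263).

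Atp6v0b was at 101 and 102 FPKM in KO against 44.2 in WT pluripotent cells, 54.9 and 51.1 in KO against 60.5 in WT cells without LIF, and 88.4 and 85.5 in KO against 79.0 in WT embryoid bodies. It rose in pluripotent culture by 1.33 ± 0.10 (adjusted p = 9.76e-07). In the other cultures it was not called, with both KO libraries below WT without LIF and above it in embryoid bodies. Atp6v0e was at 104 and 101 FPKM in KO against 61.7 in WT pluripotent cells, 71.2 and 61.9 in KO against 69.9 in WT cells without LIF, and 95.7 and 91.9 in KO against 79.0 in WT embryoid bodies. Its increase in pluripotent culture was 0.86 ± 0.12 (adjusted p = 6.78e-05), and without LIF the WT value lay between the KO values. None of Atp6v0c, Atp6v0b and Atp6v0e passed the test over the 3 cultures together, where their adjusted p-values were 0.303, 0.238 and 0.12.

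The a subunit forms the path of the protons beside the ring, and its 4 isoform genes differ in the membranes they serve. Atp6v0a1 is used in many cells and in neurons, Atp6v0a2 in the Golgi and endosomes, Tcirg1 (a3) in lysosomes and the osteoclast border, and Atp6v0a4 in acid-secreting cells of the kidney. Their summed level was 31.0 and 30.6 FPKM in KO against 26.4 in WT pluripotent cells, 29.3 and 29.3 in KO against 30.4 in WT cells without LIF, and 35.3 and 34.6 in KO against 32.3 in WT embryoid bodies. The share of Atp6v0a4 was lower in both KO libraries than in WT in each culture. It held 0.742% and 0.785% of it in KO against 16.2% in WT pluripotent cells, 1.71% and 0.956% in KO against 7.8% in WT cells without LIF, and 6.63% and 5.33% in KO against 9.47% in WT embryoid bodies.

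**Figure D2:**
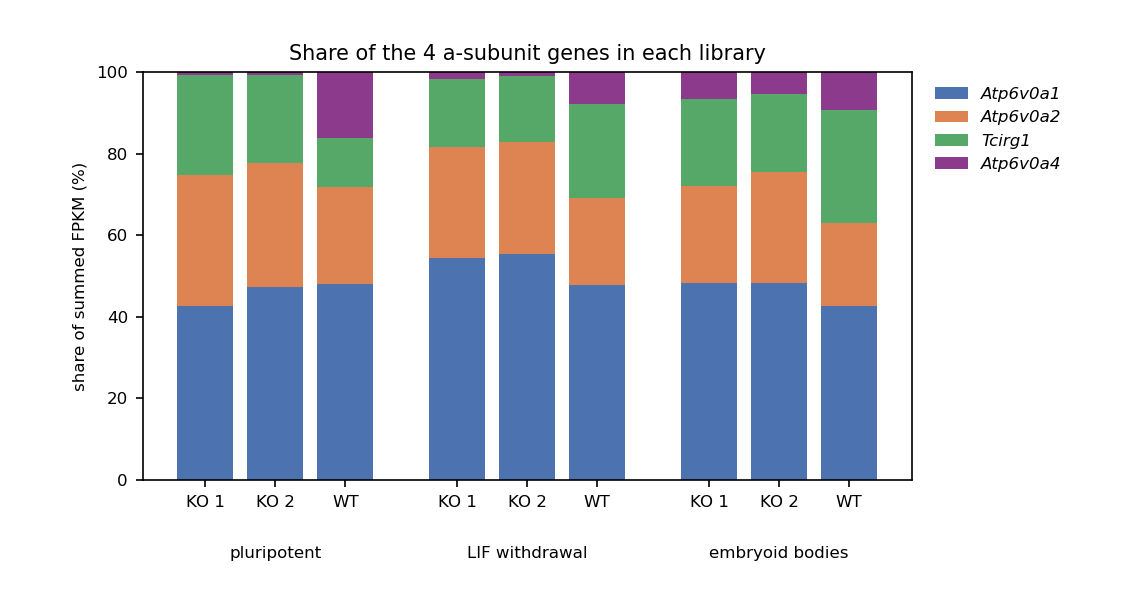
Share (%) of each of the 4 a-subunit genes in their summed FPKM, with 1 bar per library (KO 1, KO 2 and WT in each culture). Atp6v0a4, the top segment, holds 16.2% in the WT pluripotent library and under 1% in both KO pluripotent libraries.

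Atp6v0a4 was at 0.23 and 0.24 FPKM in KO against 4.28 in WT pluripotent cells, 0.50 and 0.28 in KO against 2.37 in WT cells without LIF, and 2.34 and 1.84 in KO against 3.06 in WT embryoid bodies. Its fold change was -4.05 ± 0.34 in pluripotent culture (adjusted p = 1.62e-06) and -2.54 ± 0.33 without LIF (adjusted p = 8.89e-05), both past the test, and in embryoid bodies it was -0.55 ± 0.26 (adjusted p = 0.118). Tcirg1 changed direction between cultures. It was at 7.57 and 6.6 FPKM in KO against 3.20 in WT pluripotent cells, 4.90 and 4.75 in KO against 7.01 in WT cells without LIF, and 7.53 and 6.64 in KO against 8.94 in WT embryoid bodies. Its fold change was 1.27 ± 0.19 in pluripotent culture (adjusted p = 1.38e-04), -0.47 ± 0.17 without LIF (adjusted p = 0.049) and -0.35 ± 0.16 in embryoid bodies (adjusted p = 0.112). The call without LIF was lost when either KO library of that culture, or either KO embryoid body library, was left out of the fit.

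Atp6v0a2 rose in KO cells in every culture, at 10 and 9.28 FPKM in KO against 6.25 in WT pluripotent cells, 7.93 and 7.99 in KO against 6.45 in WT cells without LIF, and 8.4 and 9.43 in KO against 6.52 in WT embryoid bodies. The fold changes were 0.75 ± 0.12 (adjusted p = 2.68e-04), 0.36 ± 0.12 (adjusted p = 0.0335) and 0.45 ± 0.12 (adjusted p = 0.012), of which that without LIF was lost with either KO library of that culture left out, and that in embryoid bodies with the second KO library of that culture left out. Atp6v0a1, the isoform with the highest level, was at 13.2 and 14.5 FPKM in KO against 12.7 in WT pluripotent cells, 16.0 and 16.3 in KO against 14.6 in WT cells without LIF, and 17.0 and 16.6 in KO against 13.8 in WT embryoid bodies. Its difference was small in each culture, and passed the test only in embryoid bodies (0.28 ± 0.10, adjusted p = 0.0343), a call lost with either KO library of that culture left out. Atp6v0e2, the less used gene of the e subunit, was at 2.67 and 2.93 FPKM in KO against 5.52 in WT pluripotent cells, 2.22 and 2.30 in KO against 3.26 in WT cells without LIF, and 2.63 and 2.45 in KO against 3.40 in WT embryoid bodies. It lay below WT in all 6 KO libraries and passed the test in pluripotent culture (-0.86 ± 0.23, adjusted p = 0.00699).

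**Figure D3:**
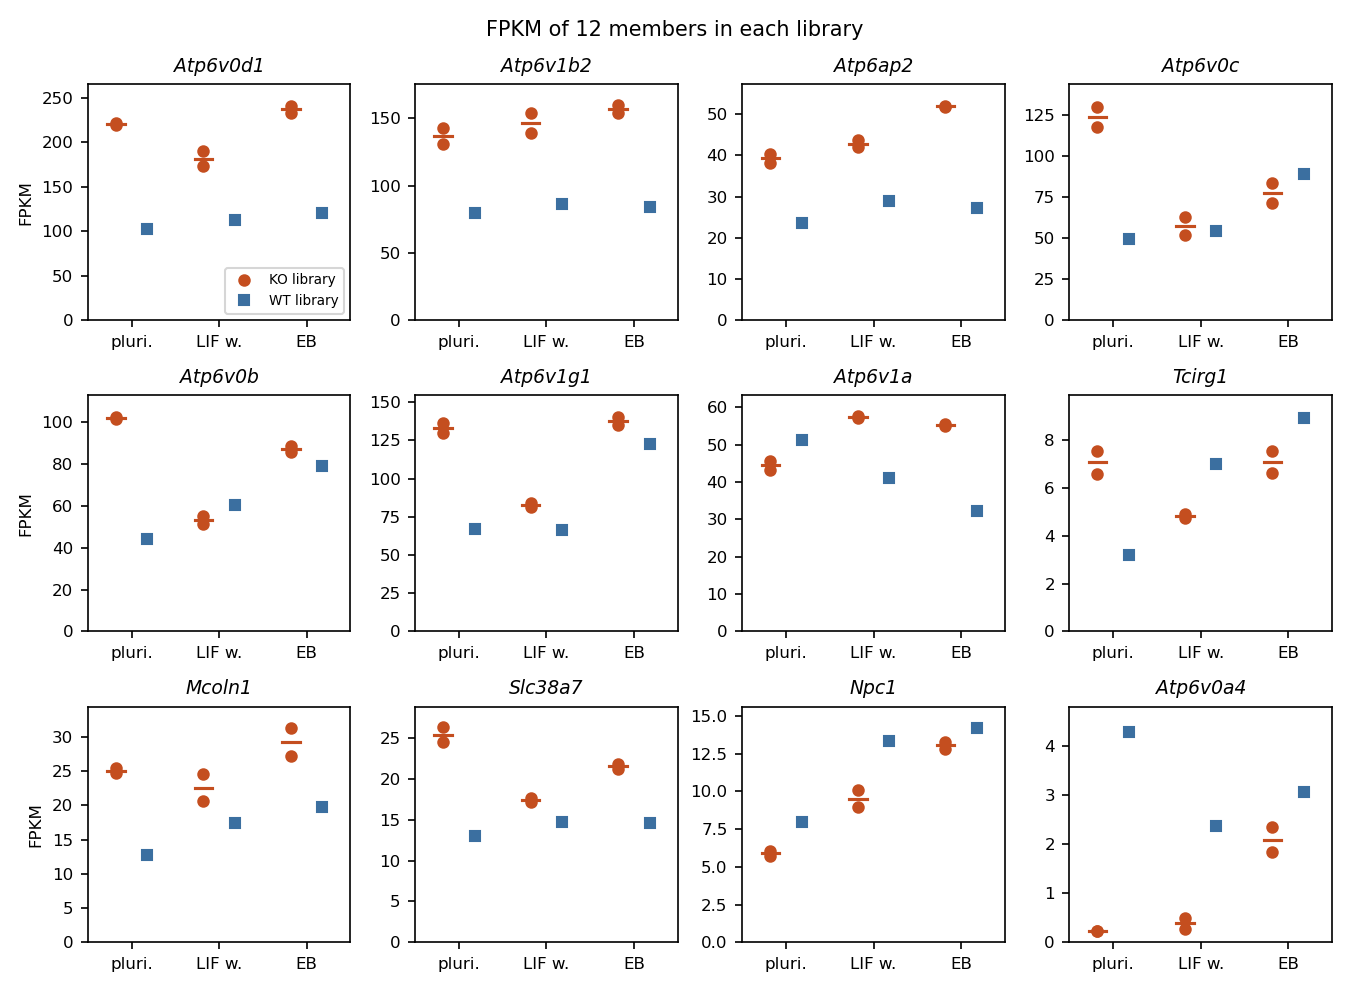
FPKM (y axis, from 0) of 12 genes in each library, by culture (pluri., pluripotent; LIF w., LIF withdrawal; EB, embryoid bodies), with KO libraries as circles, their mean as a bar, and the WT library as a square. Atp6v0d1, Atp6v1b2 and Atp6ap2 have every KO circle above every WT square, Atp6v0c and Atp6v0b have their widest gap in pluripotent culture, and Atp6v1a has its circles above the square in the other cultures only.

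Of the 9 tested V1 genes, 7 (77.8%, against 25.5% of all genes) were called higher in KO pluripotent cells, 7 (77.8%, against 18.4%) without LIF and 6 (66.7%, against 19.4%) in embryoid bodies. Of the 9, only Atp6v1c2 was called lower in any culture. V1 is a ring of A and B subunits, of which A binds the ATP that is hydrolysed, on a stalk of D and F, held by E and G struts and by C and H, which are needed for reversible assembly with V0. Atp6v1b2, the B isoform of most tissues, was at 143 and 131 FPKM in KO against 80.0 in WT pluripotent cells, 154 and 139 in KO against 86.5 in WT cells without LIF, and 159.6 and 154 in KO against 84.0 in WT embryoid bodies. Its fold changes of 0.90 ± 0.11, 0.82 ± 0.10 and 0.89 ± 0.11 lay within 1 standard error of each other, with 0.87 ± 0.08 over the 3 cultures (1.83-fold, adjusted p = 2.52e-04). The other B isoform, Atp6v1b1, was at or below 0.05 FPKM in every library.

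Atp6v1a, the gene of the catalytic A subunit, did not follow its partner. It was at 45.8 and 43.1 FPKM in KO against 51.2 in WT pluripotent cells, 57.3 and 57.8 in KO against 41.1 in WT cells without LIF, and 54.95 and 55.7 in KO against 32.2 in WT embryoid bodies. Both KO libraries were below WT in pluripotent culture (-0.08 ± 0.09, adjusted p = 0.466) and above it in the other cultures, where it rose by 0.55 ± 0.09 (adjusted p = 4.35e-04) and 0.77 ± 0.09 (adjusted p = 3.71e-05). The FPKM of Atp6v1b2 was 3.12 and 3.04 times that of Atp6v1a in KO against 1.56 times in WT pluripotent cells, 2.69 and 2.40 in KO against 2.11 in WT cells without LIF, and 2.90 and 2.76 in KO against 2.61 in WT embryoid bodies.

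Among the regulatory subunits, Atp6v1c1 was at 50.03 and 49.4 FPKM in KO against 28.3 in WT pluripotent cells, 45.6 and 47.9 in KO against 29.7 in WT cells without LIF, and 56.3 and 57.7 in KO against 33.3 in WT embryoid bodies. Every KO library was above every WT library, by 0.81 ± 0.08 over the 3 cultures (adjusted p = 2.52e-04). Atp6v1h was at 46.9 and 45.2 FPKM in KO against 36.5 in WT pluripotent cells, 47.7 and 50.3 in KO against 33.0 in WT cells without LIF, and 51.0 and 46.2 in KO against 28.5 in WT embryoid bodies. Its KO levels were nearly level across cultures, and its fold changes were 0.46 ± 0.10, 0.63 ± 0.10 and 0.76 ± 0.10 (adjusted p = 0.00201, 4.10e-04 and 1.14e-04). Atp6v1c2, the C isoform known from lung and kidney, was at 0.56 and 0.88 FPKM in KO against 1.27 in WT pluripotent cells, 0.12 and 0.00 in KO against 0.91 in WT cells without LIF, and 0.06 and 0.18 in KO against 0.56 in WT embryoid bodies. Without LIF it had 2 counts over both KO libraries against 15 in the WT library, a ratio of 0.0655 with a 95% exact binomial interval of 0.00726 to 0.281. This interval, like the other counting limits given here, covers counting error only.

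The stalk and strut genes rose in KO pluripotent cells, and the D and E genes in the other cultures as well. Atp6v1d was at 81.9 and 78.6 FPKM in KO against 43.0 in WT pluripotent cells, 57.3 and 57.5 in KO against 44.9 in WT cells without LIF, and 84.7 and 77.9 in KO against 55.3 in WT embryoid bodies, with fold changes of 1.02 ± 0.10, 0.41 ± 0.10 and 0.55 ± 0.10 (adjusted p = 5.69e-06, 0.00628 and 8.72e-04). Atp6v1e1 was at 122 and 118 FPKM in KO against 70.0 in WT pluripotent cells, 93.9 and 93.1 in KO against 69.1 in WT cells without LIF, and 122 and 106 in KO against 85.2 in WT embryoid bodies. It rose by 0.90 ± 0.10, 0.50 ± 0.10 and 0.42 ± 0.10 (adjusted p = 2.07e-05, 0.00259 and 0.00673), and all KO libraries were above all WT libraries for both genes. Its call in embryoid bodies was lost with the first KO library of that culture left out.

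Atp6v1g1 was at 136 and 129.7 FPKM in KO against 67.3 in WT pluripotent cells, 81.5 and 83.7 in KO against 66.2 in WT cells without LIF, and 141 and 135 in KO against 122 in WT embryoid bodies. The difference narrowed across the cultures, at 1.11 ± 0.09 (adjusted p = 2.03e-06), 0.38 ± 0.09 (adjusted p = 0.00762) and 0.17 ± 0.09 (adjusted p = 0.163). Atp6v1f was at 152 and 146 FPKM in KO against 91.6 in WT pluripotent cells, 97.0 and 82.9 in KO against 86.8 in WT cells without LIF, and 124 and 119 in KO against 116 in WT embryoid bodies. It passed the test in pluripotent culture (0.83 ± 0.12, adjusted p = 1.02e-04), and the WT value lay between the KO values without LIF. Atp6v1g2, the neuronal G isoform, was at 0.13 to 0.59 FPKM.

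Both accessory proteins rose in KO cells in every culture. Atp6ap1 (Ac45) guides assembly of V0, and Atp6ap2, also known as the prorenin receptor, spans the membrane beside the ring. Atp6ap2 was at 38.2 and 40.4 FPKM in KO against 23.6 in WT pluripotent cells, 42.0 and 43.6 in KO against 29.0 in WT cells without LIF, and 51.8 and 52.0 in KO against 27.2 in WT embryoid bodies. Its fold change was 0.80 ± 0.08 over the 3 cultures (adjusted p = 3.37e-04), with 0.86, 0.62 and 0.93 in the single cultures. Atp6ap1 was at 35.0 and 33.5 FPKM in KO against 23.2 in WT pluripotent cells, 35.6 and 32.3 in KO against 27.5 in WT cells without LIF, and 37.1 and 38.6 in KO against 22.3 in WT embryoid bodies. All 6 KO libraries were above all 3 WT libraries for both genes, and Atp6ap1 rose by 0.69 ± 0.11, 0.37 ± 0.11 and 0.76 ± 0.11 (adjusted p = 2.44e-04, 0.0177 and 2.10e-04). Its call without LIF was lost with the first KO library of that culture left out.

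Of the 7 tested channels and exchangers, 3 (42.9%) were called higher in each culture, against 25.5% of all genes in pluripotent culture, 18.4% without LIF and 19.4% in embryoid bodies. Mcoln1 was at 24.6 and 25.5 FPKM in KO against 12.7 in WT pluripotent cells, 20.7 and 24.5 in KO against 17.4 in WT cells without LIF, and 27.1 and 31.2 in KO against 19.8 in WT embryoid bodies. It rose by 1.11 ± 0.14 (adjusted p = 3.26e-05), 0.44 ± 0.13 (adjusted p = 0.0189) and 0.55 ± 0.13 (adjusted p = 0.00436), and the call without LIF was lost when the second KO library of that culture was left out. The related Mcoln3, the gene of TRPML3, was at 0.00 and 0.00 FPKM in KO against 0.17 in WT pluripotent cells, 0.11 and 0.32 in KO against 0.99 in WT cells without LIF, and 1.03 and 1.05 in KO against 3.06 in WT embryoid bodies. In pluripotent culture it had 0 counts over the KO libraries and 3 in the WT library, at or under the limit of 3 counts, so no fold is given, and in embryoid bodies its fold change was -1.56 ± 0.41 (adjusted p = 0.012), a call lost with either KO library of that culture left out. Mcoln3 entered the test through its level in embryoid bodies, and Atp6v1c2 through pluripotent culture and the WT libraries, so a difference of these genes between groups was built in.

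Clcn7 and Ostm1 encode both chains of the lysosomal chloride-proton exchanger. Both were called higher in embryoid bodies, and each in 1 further culture that the other did not share. Clcn7 was at 12 and 13.3 FPKM in KO against 8.11 in WT pluripotent cells, 11.3 and 11.2 in KO against 11.1 in WT cells without LIF, and 15.9 and 15.9 in KO against 11.4 in WT embryoid bodies. It rose in pluripotent culture (0.76 ± 0.11, adjusted p = 9.51e-05) and in embryoid bodies (0.47 ± 0.10, adjusted p = 0.00298), and was 0.08 ± 0.10 without LIF. Ostm1 was at 7.26 and 6.82 FPKM in KO against 6.17 in WT pluripotent cells, 10.3 and 10.3 in KO against 5.72 in WT cells without LIF, and 16.4 and 15.4 in KO against 10.2 in WT embryoid bodies. It rose without LIF (0.91 ± 0.14, adjusted p = 3.01e-04) and in embryoid bodies (0.64 ± 0.13, adjusted p = 0.00189), and was 0.32 ± 0.14 in pluripotent culture (adjusted p = 0.0802).

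Tpcn1, of a family of calcium and sodium channels of endosomes and lysosomes, was at 10.99 and 10.8 FPKM in KO against 7.64 in WT pluripotent cells, 9.90 and 9.72 in KO against 7.69 in WT cells without LIF, and 11.4 and 11.2 in KO against 9.69 in WT embryoid bodies. It rose in pluripotent culture (0.64 ± 0.11, adjusted p = 3.41e-04) and without LIF (0.41 ± 0.11, adjusted p = 0.00932), and was 0.21 ± 0.10 in embryoid bodies. Tpcn2, at 1.20 to 2.18 FPKM, and Tmem175, a lysosomal potassium and proton channel at 4.54 to 7.93 FPKM, were not called in any culture. In the GENCODE annotation 35.3% of the exonic bases of Tmem175 are also exonic in Dgkq on the opposite strand. Without a known strand setting, reads of these neighbours cannot be told apart. Smaller overlaps with genes on the opposite strand touch Atp6v0b (11.8%), Atp6v0a2 (9.86%), Slc15a4 (8.04%) and Ostm1 (5.69%), among others. Atp6v0a4 shares 5.21% of its exonic bases with D630045J12Rik on the same strand. Atp6v0c has 2 named pseudogenes with which it may share reads.

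Of the 7 solute and lipid transporters, 2 (28.6%, near the 25.5% of all genes) were called higher in KO pluripotent cells, 1 (14.3%, against 18.4%) without LIF and 3 (42.9%, against 19.4%) in embryoid bodies. In each culture 1 (14.3%) was called lower, where 26.3%, 17.4% and 17.7% of all genes were. Slc38a7, a glutamine and asparagine exporter of the lysosome, was at 26.3 and 24.5 FPKM in KO against 13.0 in WT pluripotent cells, 17.6 and 17.1 in KO against 14.8 in WT cells without LIF, and 21.8 and 21.2 in KO against 14.6 in WT embryoid bodies. It rose by 1.09 ± 0.11 (adjusted p = 5.32e-06), 0.29 ± 0.11 (adjusted p = 0.0464) and 0.55 ± 0.11 (adjusted p = 0.00139). The call without LIF was lost when either KO library of that culture, or either KO embryoid body library, was left out. Ctns, the cystine exporter mutated in cystinosis, was at 11.2 and 11.6 FPKM in KO against 5.95 in WT pluripotent cells, 9.09 and 10.3 in KO against 9.36 in WT cells without LIF, and 17.7 and 15.4 in KO against 11.6 in WT embryoid bodies. The WT value lay between the KO values without LIF, and Ctns rose in pluripotent culture (1.06 ± 0.14, adjusted p = 7.02e-05) and in embryoid bodies (0.50 ± 0.13, adjusted p = 0.00858), the second call being lost with the first KO embryoid body library left out. Slc36a1, a proton-coupled amino acid exporter, was at 4.34 and 3.97 FPKM in KO against 3.38 in WT pluripotent cells, 4.86 and 4.68 in KO against 4.13 in WT cells without LIF, and 7.98 and 6.45 in KO against 4.51 in WT embryoid bodies, where it was called (0.67 ± 0.16, adjusted p = 0.0061).

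Npc1 and Slc11a1 were called lower in KO cells, though not in every culture. Npc1, which passes cholesterol out of lysosomes, was at 5.75 and 6.07 FPKM in KO against 7.95 in WT pluripotent cells, 8.95 and 10.1 in KO against 13.3 in WT cells without LIF, and 12.8 and 13.3 in KO against 14.2 in WT embryoid bodies. It lay below WT in all 6 KO libraries and was called without LIF (-0.42 ± 0.10, adjusted p = 0.0053), while its call in pluripotent culture (-0.31 ± 0.11, adjusted p = 0.0333) was lost with either KO library of that culture, or either KO embryoid body library, left out. Slc11a1 (Nramp1), a metal transporter known from macrophages, was at 4.04 and 4.42 FPKM in KO against 5.55 in WT pluripotent cells, 2.52 and 2.63 in KO against 2.54 in WT cells without LIF, and 2.17 and 2.33 in KO against 3.70 in WT embryoid bodies. Without LIF the WT value of Slc11a1 lay between the KO values. It was called in embryoid bodies (-0.72 ± 0.22, adjusted p = 0.0205), a call lost with either KO library of that culture left out. DESeq2 lost this call and both single-culture calls of Npc1. Slc15a4, a histidine and peptide transporter at 5.70 to 8.61 FPKM, and Slc17a5, the sialic acid exporter at 1.59 to 4.75 FPKM, were not called in any culture.

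Against pluripotent cells of the same genotype, the KO cells without LIF had 6 of the 34 genes called higher and 15 lower, with a median of -0.19, where 59.2% of all genes were called, 30.2% higher and 29.0% lower. WT cells without LIF had 8 called higher and 1 lower, with a median of 0.12, where 20.5% of all genes were called, 11.6% higher and 8.90% lower. KO embryoid bodies had 10 called higher and 8 lower (61.0% of all genes, 31.0% higher and 30.0% lower), and WT embryoid bodies 14 higher and 3 lower (38.6% of all genes, 19.7% higher and 18.9% lower). The KO comparisons rest on 2 libraries against 2 and the WT comparisons on 1 against 1, so these counts cannot be set against each other. The comparisons with embryoid bodies share their pluripotent libraries with those without LIF. In KO embryoid bodies the direction of small changes depended on scaling: with quantile-normalized FPKM, 18 were called higher and the log2 changes of Atp6v0d1, Atp6v0e, Atp6v1d, Atp6v1g1 and Atp6v1h turned positive.

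The difference between the KO and the WT response was tested directly. It equals the fold change of KO over WT in the culture named minus that in pluripotent culture, so it restates the fold changes given above. After LIF withdrawal 12 of the 34 genes had a lower response in KO than in WT cells and 3 a higher response, where 32.3% of all genes were called, 14.9% lower and 17.5% higher, and the median was -0.24 against 0.02 for all genes. In embryoid bodies 12 had a lower response in KO cells and 2 a higher response, where 41.8% of all genes were called, 19.5% lower and 22.4% higher, and the median was -0.21 against 0.04 for all genes. DESeq2 called 5 lower in embryoid bodies. In all, 10 genes were lower in both differences, 2 were higher in both (Atp6v0a4 and Atp6v1a) and 17 were called in neither. Both differences use the same pluripotent libraries, so a gene called in both was not seen independently.

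Of the genes called lower in the difference without LIF, Tcirg1 had the largest value, with a change of -0.58 ± 0.14 in KO (adjusted p = 0.00342) and 1.16 ± 0.21 in WT cells (adjusted p = 0.00231), a difference of -1.74 ± 0.25 (adjusted p = 3.66e-04). Atp6v0b had -0.98 ± 0.08 in KO and 0.48 ± 0.12 in WT cells, a difference of -1.46 ± 0.14 (adjusted p = 2.75e-05). Atp6v0c had -1.14 ± 0.11 in KO and 0.17 ± 0.17 in WT cells, a difference of -1.31 ± 0.20 (adjusted p = 5.22e-04). For each of these genes the WT pluripotent library had the lowest FPKM of the WT libraries. In embryoid bodies the differences of Atp6v0c, Tcirg1 and Atp6v0b were -1.66 ± 0.20 (adjusted p = 6.33e-05), -1.62 ± 0.25 (adjusted p = 3.45e-04) and -1.19 ± 0.14 (adjusted p = 5.44e-05).

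Atp6v0a4 and Atp6v1a responded in the other direction, with differences without LIF of 1.51 ± 0.53 (adjusted p = 0.0457) and 0.63 ± 0.12 (adjusted p = 0.00233). Atp6v0a4 rose by 3.03 ± 0.33 in KO embryoid bodies relative to KO pluripotent cells (adjusted p = 8.69e-06), where WT cells had -0.47 ± 0.28, a difference of 3.50 ± 0.45 (adjusted p = 1.02e-04). Atp6v1a changed by 0.21 ± 0.07 in KO (adjusted p = 0.0232) and -0.65 ± 0.10 in WT embryoid bodies (adjusted p = 4.01e-04), a difference of 0.85 ± 0.12 (adjusted p = 2.34e-04). For Npc1 both genotypes rose, by 1.03 ± 0.09 in KO (adjusted p = 1.08e-06) and 0.85 ± 0.12 in WT embryoid bodies (adjusted p = 1.63e-04), and the difference of responses was 0.18 ± 0.15 (adjusted p = 0.346). Mcoln3 had 37 counts over the KO embryoid bodies and 0 over the KO pluripotent libraries, at least 12.1-fold higher. In the WT libraries it had 54 and 3 counts, a ratio of 18.5 with a 95% exact binomial interval of 5.99 to 92.3. Because Mcoln3 entered the test through its level in embryoid bodies, a rise there was built in. It is among the genes counted above as called higher in KO and in WT embryoid bodies.

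**Figure D4:**
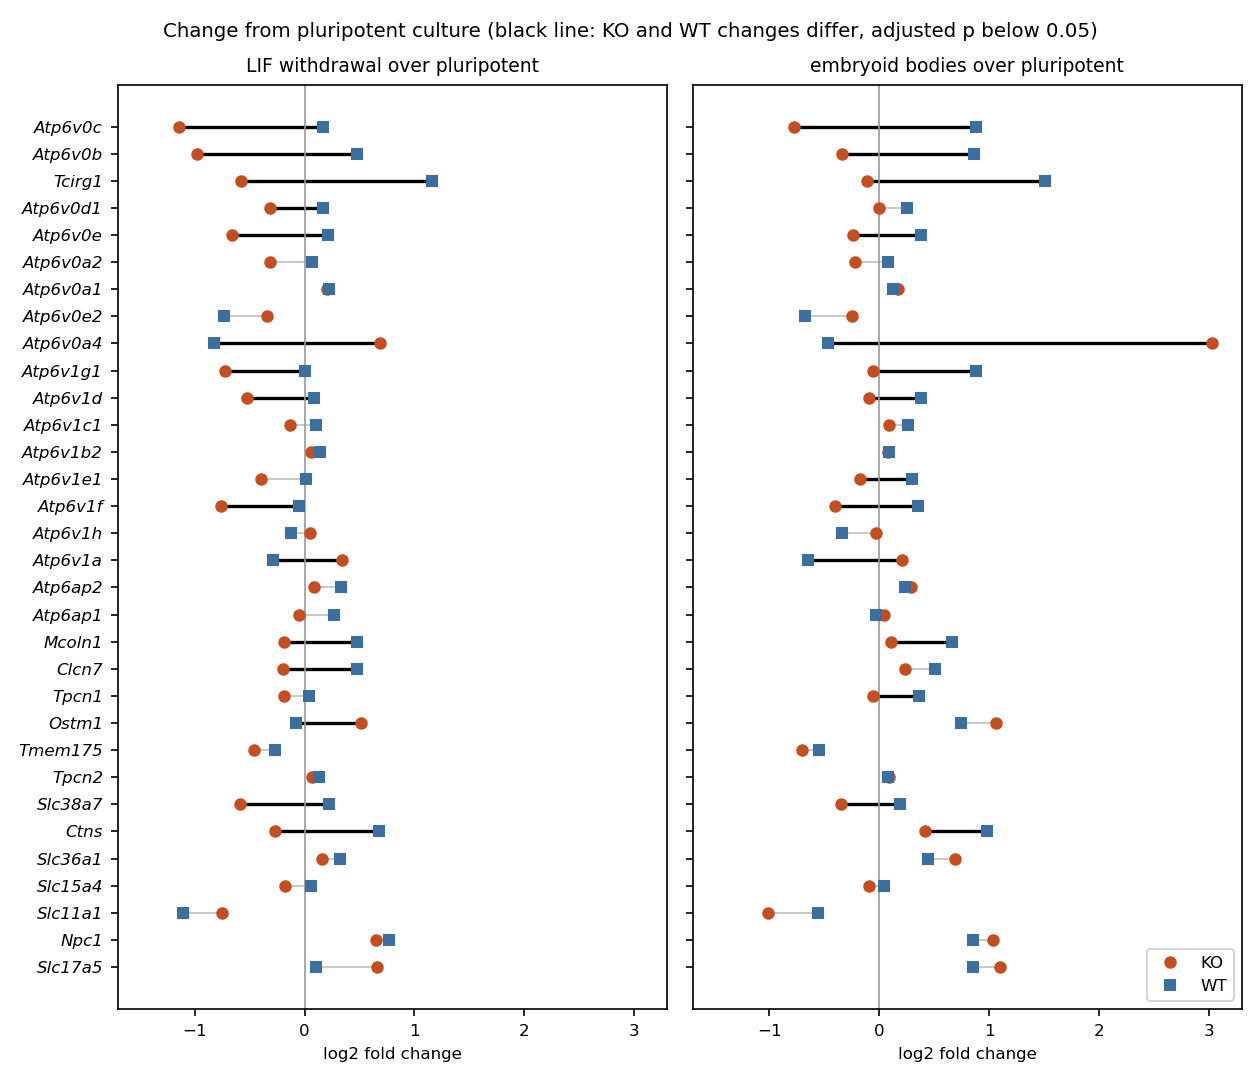
Log2 change (x axis) in cells without LIF (left) and embryoid bodies (right) relative to pluripotent cells of the same genotype, for the same 32 genes, with KO as circles and WT as squares. A black line joins the genotypes where their responses differed by the test and a grey line where they did not. For Atp6v0c, Atp6v0b and Tcirg1 the KO circle lies left of the WT square in both panels, and for Atp6v0a4 and Atp6v1a it lies right of it.

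The proportions within V0 come from the same FPKM values as the calls and responses above, so they are not a separate result. The FPKM of Atp6v0c was 0.59 and 0.53 times that of Atp6v0d1 in KO against 0.48 times in WT pluripotent cells, 0.33 and 0.30 in KO against 0.48 in WT cells without LIF, and 0.35 and 0.31 in KO against 0.74 in WT embryoid bodies. The FPKM of Atp6v0b was 0.46 and 0.46 times that of Atp6v0d1 in KO against 0.43 in WT pluripotent cells, 0.29 and 0.29 in KO against 0.54 in WT cells without LIF, and 0.37 and 0.37 in KO against 0.66 in WT embryoid bodies. In both ratios the KO libraries were above WT in pluripotent culture and below it in the other cultures.

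Other genes of the pump and the lysosomal membrane gave a mixed account. Of 16 genes for V-ATPase assembly and regulation, 12 were tested, and 3 (25.0%, against 13.3% of all genes) were called higher in KO over the 3 cultures by edgeR and 0 lower (also 0 at an unadjusted p below 0.05). The 3 were Tmem199 (0.55 ± 0.11, adjusted p = 0.00677), an assembly factor, Rnasek (0.49 ± 0.14, adjusted p = 0.0367), a small protein bound to V0, and Rogdi (0.37 ± 0.11, adjusted p = 0.0434), of the rabconnectin complex that promotes assembly. Rnasek was at 154 and 139 FPKM in KO against 83.2 in WT pluripotent cells. In pluripotent culture 3 were called higher and 3 lower (25.0% each, against 25.5% and 26.3% of all genes), the lower ones being Dmxl2 (-1.05 ± 0.16, adjusted p = 1.41e-04) and Dmxl1 (-0.87 ± 0.11, adjusted p = 4.10e-05), the large rabconnectin subunits, and Oxr1 (-0.63 ± 0.10, adjusted p = 2.15e-04). Without LIF 8 of the 12 (66.7%, against 18.4% of all genes) were called higher by edgeR and 0 lower (also 0 at an unadjusted p below 0.05). In embryoid bodies 4 (33.3%, against 19.4%) were called higher by edgeR and 0 lower (1, Tmem9, at an unadjusted p below 0.05).

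Of 40 other lysosomal and endosomal transporters, 37 were tested, and over the 3 cultures 6 were called higher and 6 lower (16.2% each, against 13.3% and 13.8% of all genes), with a median of -0.09. The 3 with the largest increases were Mfsd1 (1.31 ± 0.15, adjusted p = 5.87e-04), a dipeptide exporter, Npc2 (1.18 ± 0.21, adjusted p = 0.00365), the soluble partner of NPC1 in cholesterol transfer, and Clcn6 (0.77 ± 0.07, adjusted p = 2.64e-04), a chloride-proton exchanger of late endosomes. Npc2 was at 67.5 and 71.1 FPKM in KO against 19.0 in WT pluripotent cells, 43.4 and 42.0 in KO against 25.4 in WT cells without LIF, and 61.1 and 63.3 in KO against 34.3 in WT embryoid bodies, opposite in direction to Npc1. The 3 with the largest decreases were Slc39a8 (-1.83 ± 0.29, adjusted p = 0.00229), a zinc and manganese importer, Kcnk1 (-1.74 ± 0.25, adjusted p = 0.00142), a potassium channel, and Slc38a9 (-0.95 ± 0.18, adjusted p = 0.00492), the arginine sensor that works with Ragulator. Slc38a9 was at 0.91 and 0.91 FPKM in KO against 2.40 in WT pluripotent cells, 1.25 and 1.33 in KO against 3.08 in WT cells without LIF, and 2.15 and 2.69 in KO against 3.11 in WT embryoid bodies. In pluripotent culture 12 (32.4%, against 25.5% of all genes) were called higher and 7 (18.9%, against 26.3%) lower. Without LIF the counts leaned the other way, with 5 higher (13.5%, against 18.4%) and 12 lower (32.4%, against 17.4%) and a median of -0.21, and in embryoid bodies 6 were higher (16.2%, against 19.4%) and 5 lower (13.5%, against 17.7%). The largest changes in pluripotent culture included Slc17a9 (1.74 ± 0.17, adjusted p = 5.00e-06), an ATP transporter, after Npc2 (1.99) and Mfsd1 (1.80). The largest decreases there were those of Slc39a8 (-2.84), Clcn5 (-1.92 ± 0.25, adjusted p = 4.63e-05), a chloride-proton exchanger, and Slc29a3 (-1.48 ± 0.15, adjusted p = 5.69e-06), a nucleoside transporter.

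The search for TCACGTG, on both strands, covered the 300-base promoters of the 27 tested genes that have one. It was found in 8 of them (29.6%): Atp6v0b, Atp6v0d1, Atp6v0e, Atp6v1a, Mcoln1, Clcn7, Slc36a1 and Slc38a7, with 2 copies each in Atp6v0b, Mcoln1, Clcn7 and Slc36a1. Of all tested genes with a promoter, 767 of 10926 (7.02%) held it, as did 3.77% of all 32851 promoters in the table. By calls in the single cultures, the 8 genes were among the 17 with a promoter called higher in KO cells in at least 1 culture and lower in none (47.1%), where 9.84% of all tested genes with those calls held it. Of the 9 with a promoter not called higher in any culture, 0 held it, where 5.6% of all such genes did, too few genes to tell these shares apart. Of the 7 with a promoter called higher in all 3 cultures, 3 held it (42.9%), where 10.5% of all such genes did, and the remaining 4 had the same calls without these letters in the window. Atp6v0a2, Atp6v1b2, Atp6v1c1 and Atp6v1h, also called higher in all 3 cultures, had no promoter at hand and were not searched. These splits use the same calls that are described above, and no test was made of them. CACGTG, the shorter E-box within it, was in the same 8 genes and in 11.8% of all tested genes. In Mcoln1 the CACGTG within the copies begins at positions -71 and -45 relative to the start, and in Atp6v0d1 at position -3. Such matches describe the sequence only, and binding by a factor was not measured.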

How the data were processed

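RNA was measured by RNA-seq in 9 libraries of E14 mouse embryonic stem cells. The submitters' processing notes name Bowtie2 and mouse build mm8. Which program counted reads, with which strand setting and annotation, is not given in the sources used here. The deposited tables hold 1 library each, with an expected count and an FPKM value for every gene listed, per the file headers. Of the deposited expected counts, 78.0% to 78.4% lay within 0.005 of a whole number; they were rounded, and a gene not listed in a library was set to 0 there. Of 20287 gene IDs, 20234 were named by ID and 9 by accession from the RefSeq gene table, used for names only. Genes with a mean of at least 0.5 in the authors' FPKM (13990) were tested.

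Tests were edgeR's quasi-likelihood test (edgeR 4.0.16, R 4.3.3; TMM factors of 0.94 to 1.04) with Benjamini-Hochberg adjustment over all genes tested, in 10 comparisons. Single cultures, changes from pluripotent culture and differences of responses came from 6 group means (3 residual degrees of freedom, biological coefficient of variation 6.52%). KO against WT over the 3 cultures came from an additive fit of culture and genotype (5 degrees of freedom, 18.1%). The spread of the additive fit includes changes of the KO to WT difference from culture to culture. Standard errors are the fold change over the root of F. The KO pairs differed by more than sampling noise (chi-square per degree of freedom 3 to 4.6), so none was counted as a single library. The scripts were tested on simulated data. Alternatives were DESeq2 1.42.0 and its size factors, limma 3.58.1 on log2(FPKM + 1), log2(FPKM + 0.1) and quantile-normalized values, other filters, each library left out, and, chosen after seeing the data, the pluripotent culture left out.

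The genes and lists were chosen with earlier results of these data known. Values are printed for genes called between KO and WT (up to 12 per direction and comparison) or in a difference of responses (up to 6), and for the 3 largest called changes per direction of each other list, over the 3 cultures and in pluripotent culture; FPKM by library of genes outside this rule, such as Npc2, Rnasek and Slc38a9, and the values of named cell type markers and Tmem9, were given after their values were seen. Exon overlaps and pseudogene names are from GENCODE (release M21), and promoters from RefSeq.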

Additional observations from a re-analysis of the deposited data

Results flagged for a closer look

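The change from pluripotent culture differed between KO and WT cells by edgeR's quasi-likelihood test of the difference itself (adjusted p below 0.05) for the following genes, given as the KO minus the WT log2 change. Each difference rests on a single WT library per culture, and both sets share the pluripotent libraries, of which the KO libraries stood apart from all others.

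After LIF withdrawal the V0 genes called were Atp6v0a4 (1.51), Atp6v0d1 (-0.48), Atp6v0e (-0.87), Atp6v0c (-1.31), Atp6v0b (-1.46) and Tcirg1 (-1.74). The V1 genes called were Atp6v1a (0.63), Atp6v1d (-0.61), Atp6v1f (-0.71) and Atp6v1g1 (-0.73). Ostm1 (0.59), Mcoln1 (-0.67) and Clcn7 (-0.68) were called among the channels, and Slc38a7 (-0.80) and Ctns (-0.95) among the transporters. The calls of Atp6v0a4 and Ostm1 were each lost with 5 of the 6 KO libraries left out in turn. The exceptions were the second KO library without LIF for Atp6v0a4 and the first KO pluripotent library for Ostm1. DESeq2 lost the calls of Atp6v0a4, Ostm1, Mcoln1 and Clcn7. Mcoln1 also lost its call under limma on FPKM, quantile-normalized or not. Under limma, Atp6v0a4 lost its call in some settings, and Atp6v0d1 on quantile-normalized values. With no filter on low values, Atp6v0a4 and Ostm1 lost theirs.

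In embryoid bodies the V0 genes called were Atp6v0a4 (3.50), Atp6v0e (-0.62), Atp6v0b (-1.19), Tcirg1 (-1.62) and Atp6v0c (-1.66). The V1 genes called were Atp6v1a (0.85), Atp6v1d (-0.47), Atp6v1e1 (-0.48), Atp6v1f (-0.76) and Atp6v1g1 (-0.94). Tpcn1 (-0.42) and Mcoln1 (-0.55) were called among the channels, and Slc38a7 (-0.54) and Ctns (-0.56) among the transporters. The calls of Ctns, Mcoln1 and Tpcn1 were lost under DESeq2, under limma on FPKM and with 3 KO libraries each left out in turn (pluripotent or embryoid body libraries). Those of Atp6v1d and Atp6v1e1 were lost with the second KO embryoid body library left out. DESeq2 also lost the calls of Atp6v0e, Atp6v1d, Atp6v1e1 and Slc38a7. Under limma, Atp6v1e1 lost its call on FPKM, quantile-normalized or not, and Atp6v0e and Atp6v1d lost theirs on quantile-normalized values.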

How the results depend on the processing

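Of 304 counts of called genes under the alternatives, 264 lay within 1.5 times of the reported count, and of 5148 values of single genes 4782 kept their direction and their side of the threshold, 285 lost the call, 72 gained it and 9 reversed. Counts of genes called higher between KO and WT, in each culture and over the 3 cultures, lay within 1.5 times in every alternative run. The cause of the changes below was not tested.

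With DESeq2 the genes called lower in KO than in WT cells numbered 1 in pluripotent culture, 1 without LIF and 0 in embryoid bodies. DESeq2 called 2 higher and 0 lower in WT cells without LIF, 9 higher and 1 lower in WT embryoid bodies, and, in the differences of responses, 1 higher without LIF and 5 lower in embryoid bodies. With limma on log2(FPKM + 1), 5 were called higher and 3 lower in WT cells without LIF, and 4 higher in the embryoid body difference. With limma on log2(FPKM + 0.1), 1 was called lower between KO and WT embryoid bodies, and 4 higher and 2 lower in WT cells without LIF. On quantile-normalized values 2 were called lower in WT cells without LIF, 18 higher in KO embryoid bodies, 5 lower in WT embryoid bodies and 7 lower in the embryoid body difference. With no filter 5 were called higher in WT cells without LIF and 1 higher in the difference without LIF. With a mean of at least 1 FPKM, which removes 2 of the genes, 3 were called lower without LIF and 1 in embryoid bodies. limma on FPKM moved the median of all genes in pluripotent culture to -0.11 or, with 0.1 added, -0.13, against which the 34 genes had a median of 0.55 or 0.59.

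With each library left out in turn, KO against WT over the 3 cultures gave 13 to 19 higher and 0 to 5 lower, with 0 lower without the WT library of LIF withdrawal. The KO against WT counts were 20 to 21 higher and 2 to 4 lower in pluripotent culture, 12 to 15 higher and 4 to 5 lower without LIF, and 14 to 17 higher and 0 to 2 lower in embryoid bodies, with 0 lower without either KO embryoid body library. Changes from pluripotent culture gave 3 to 6 higher and 12 to 16 lower in KO cells without LIF, 5 to 8 higher and 1 to 2 lower in WT cells without LIF, 8 to 10 higher and 7 to 10 lower in KO embryoid bodies, and 12 to 16 higher and 1 to 4 lower in WT embryoid bodies. The differences of responses gave 1 to 3 higher and 12 to 13 lower without LIF, and 2 higher and 8 to 12 lower in embryoid bodies. A comparison whose only WT library is left out gives no value.

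Values that reversed were those of Tcirg1 over the 3 cultures (0.07 with all libraries, -0.40 to 0.37 with single libraries left out), at -0.40 without the WT pluripotent library and -0.40 without the pluripotent culture, and, in KO embryoid bodies on quantile-normalized values, Atp6v0d1 (0.41), Atp6v0e (0.05), Atp6v1d (0.17), Atp6v1g1 (0.31) and Atp6v1h (0.20). Mcoln3 reversed in the embryoid body difference, to -0.77 with limma on log2(FPKM + 1) and -0.81 on quantile-normalized values, where its main value of 3.02 rests on 0 KO counts in pluripotent culture.

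KO libraries with the same replicate number deviated together with correlations of 0.183, 0.022 and 0.071, so the numbers were not taken to pair the libraries. With the replicate number as a block in a fit of the KO libraries alone, 6 genes were called higher and 18 lower without LIF, and 10 higher and 10 lower in embryoid bodies. The KO and WT libraries share too few numbers for a paired comparison of genotypes.

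Depth limits the genes with few counts, Atp6v1c2 and Mcoln3, and 1 WT library per culture limits the precision of each comparison.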
